A study of Mus musculus with 20 samples.

Results

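The transcription factors described here are 9 genes that set or mark macrophage identity: Spi1 (PU.1), Irf8, Cebpa, Cebpb, Maf (c-MAF), Klf2, Klf4, Mitf and Tfec. They were taken by gene name from the 56748 genes of each count table, of which 1525 are marked there as transcription factors. The set was chosen on values of these same libraries: Klf4 because it was lower in stimulated iNOS KO cells than in stimulated wildtype cells, and Tfec because it was absent from RAW264.7 cells. Those differences are given below as descriptions, with no test. All 9 genes were measured well enough to be tested in the first experiment and 7 in the second, where Maf and Tfec held no counts.

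Gene expression was measured by RNA-seq of polyadenylated RNA in 2 experiments. The first holds 12 libraries, 3 replicates (A to C) of each of 4 groups: wildtype or iNOS KO cells, either unstimulated or stimulated for 48 h with 50 ng/mL LPS and 30 ng/mL IFNγ. iNOS, encoded by Nos2, is the inducible enzyme that makes nitric oxide in activated macrophages. The labels call these cells bone marrow-derived macrophages (BMDM), grown with 20 ng/mL M-CSF from the marrow of male or female C57BL/6J mice aged 6 to 12 weeks, whereas the study's own account places this experiment in RAW264.7 cells, so the cell type is unsettled and the libraries are named by their label. For BMDM the study's methods give C57BL/6J mice for wildtype cells and a separate strain with the Nos2tm1Lau allele for iNOS KO cells. They state an age of 8 to 12 weeks, unlike the labels. If these are BMDM, strain and knockout cannot be told apart. The methods also describe marrow pooled by genotype, so the replicates may not be separate animals. The second experiment holds 8 libraries of RAW264.7, a mouse macrophage-like tumour line, with 2 replicates (A and B) of wildtype or Akr1a1 KO cells, unstimulated or given LPS and IFNγ for 48 h at 50 and 10 ng/mL. Akr1a1 is an aldo-keto reductase that also reduces S-nitroso-CoA, and its KO lines were clones made by CRISPR. Where replicates were not separate cultures or animals, the p-values measure only the spread between libraries, which may be technical.

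PU.1, an ETS family protein, binds the enhancers of most macrophage genes and is required for the lineage. IRF8 pairs with PU.1 and steers progenitors towards monocytes, and its gene responds strongly to IFNγ. C/EBPα is needed to form granulocyte and monocyte progenitors, while C/EBPβ acts in inflammatory and emergency myelopoiesis. c-MAF restrains macrophage self-renewal and is known to drive Il10. KLF2 and KLF4 are zinc finger factors that temper inflammatory activation, and KLF4 is also needed for monocyte formation. MITF and TFEC are related bHLH leucine zipper factors of the MiT/TFE family, with MITF acting in osteoclasts and lysosomal gene control and TFEC expressed mainly in macrophages.

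Promoter windows were available in RefSeq sequence for 7 of the 9 genes, on build GRCm38.p6, and are shown for the 3 of them that rose strongly in stimulated wildtype cells of the first experiment and held a motif match. Each window holds the 250 bases before the transcription start, 5′ to 3′ on the gene's strand, with capitals at matches of the motif named. The windows are Irf8 at chr8:120736108-120736357 on the + strand with 2 matches to the STAT site TTCNNNGAA, Klf4 at chr4:55532476-55532725 on the - strand with an E-box CACGTG, and Tfec at chr6:16898442-16898691 on the - strand with the PU.1 type ETS site AGGAAGT:
Irf8: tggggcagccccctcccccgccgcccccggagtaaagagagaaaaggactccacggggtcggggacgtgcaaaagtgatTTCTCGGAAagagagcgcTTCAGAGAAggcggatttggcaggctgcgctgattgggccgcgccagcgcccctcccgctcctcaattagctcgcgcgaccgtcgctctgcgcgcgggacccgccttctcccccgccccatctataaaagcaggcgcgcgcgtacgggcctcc
Klf4: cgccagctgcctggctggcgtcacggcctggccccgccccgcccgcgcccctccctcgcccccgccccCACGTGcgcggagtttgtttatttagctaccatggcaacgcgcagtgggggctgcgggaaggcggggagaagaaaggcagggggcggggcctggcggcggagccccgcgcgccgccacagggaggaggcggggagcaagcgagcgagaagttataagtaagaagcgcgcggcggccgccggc
Tfec: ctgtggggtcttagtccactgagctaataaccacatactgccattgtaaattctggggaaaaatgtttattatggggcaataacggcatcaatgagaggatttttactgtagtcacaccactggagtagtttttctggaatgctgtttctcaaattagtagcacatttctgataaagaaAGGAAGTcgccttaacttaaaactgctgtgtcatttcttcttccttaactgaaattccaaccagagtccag

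The motifs were searched on both strands and were picked after the windows had been read. The STAT site occurred in 7.02% of all 32851 RefSeq windows of this length, the ETS site in 7.69% and the E-box in 6.02%. The 2 Irf8 matches lie 171 and 153 bases before the start, the Klf4 match 182 and the Tfec match 71. Of the other motifs, the ISRE core (GAAA, any 2 bases, GAAA; 2.98% of windows), the NF-kB site (GGGA, any 2 bases, TTCC; 1.21%) and the AP-1 site TGANTCA (6.75%) matched none of the 7 genes. The C/EBP site TTGCNNAA (9.56%) and the cyclic AMP site TGACGTCA (1.55%) each matched 1 of the 3 Mitf windows. The Cebpa, Cebpb and Klf2 windows and a second Irf8 window held none of the 8 motifs. No binding was measured, so a match is only a description of the letters.

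Library totals ran from 15072109 to 18878107 counts in the first experiment and from 11876719 to 44583327 in RAW264.7 cells. Levels are given as CPM, the count of a gene over the library size, which was scaled by TMM, and differences as log2 fold changes with standard errors from edgeR's quasi-likelihood fit. A gene is called changed where the p adjusted over all genes tested is under 0.05. Nos2 lay between 10400 and 11500 CPM in stimulated wildtype and between 870 and 912 in stimulated iNOS KO libraries, and it held 0 counts in all 3 unstimulated iNOS KO libraries. Akr1a1 lay between 427 and 675 CPM in wildtype RAW264.7 libraries and between 21.8 and 370 in Akr1a1 KO libraries. Replicate B of both unstimulated RAW264.7 groups carries a title that says stimulated, against its treatment field, and was grouped by the treatment field. Nos2 was at 4.21 to 54.7 CPM in the 4 unstimulated RAW264.7 libraries and at 4160 to 8810 in the 4 stimulated ones. Replicate B of stimulated iNOS KO cells differed more from the other 2 of its group than they did from each other (chi-square per degree of freedom 26.35 and 33.55 against 6.12), and results that turn on it are given without it as well. In RAW264.7 cells the replicates of a group differed by 14.09 to 61.58 on this measure. The common dispersion, edgeR's measure of spread between replicates, was 0.0522 there against 0.00845 in the first experiment.

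Markers of macrophages summed to high levels in both experiments, and those of other cell types were low. The 20 macrophage markers summed to 9520 to 9860 CPM in unstimulated wildtype, 10700 to 11900 in stimulated wildtype, 6940 to 7310 in unstimulated iNOS KO and 14500 to 15100 in stimulated iNOS KO libraries, with 17 to 19 of them at 1 CPM or more. In RAW264.7 cells they summed to 4430 to 14600 CPM. The 12 neutrophil markers stayed at or below 1.33 CPM in unstimulated libraries of the first experiment and reached 37.6 to 64.6 in stimulated wildtype and 38.6 to 44.7 in stimulated iNOS KO libraries, with 5 to 7 of the 12 at 0 in each group. They reached 420 CPM in stimulated RAW264.7 cells. In the first experiment S100a8 alone held most of the stimulated sum, with means of 49.3 CPM in wildtype and 39.5 in iNOS KO libraries. The 8 fibroblast markers stayed at or below 0.389 CPM in unstimulated libraries of the first experiment. They were at 3.78 to 5.13 CPM in stimulated wildtype and 11.5 to 17.1 in stimulated iNOS KO libraries. Dcn alone held most of the latter sum, with a mean of 13.6 CPM. Lymphocyte markers did not pass 4.49 CPM, dendritic cell markers 7.57 and progenitor and mast cell markers 9.19 in any library. These sums moved with the groups, and their part in the differences of the lineage factors was not tested. In such bulk samples fewer cells of a type and less RNA per cell cannot be told apart.

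Per length of transcript, Cebpb and Spi1 were the leading lineage factors in every group of both experiments. Among the 947 genes marked as transcription factors and tested in the first experiment, ordered by CPM per kilobase of gene model, Spi1 stood at place 6 and Cebpb at place 8 in unstimulated wildtype cells. After stimulation of wildtype cells Cebpb stood at place 2 (640 CPM per kilobase) and Spi1 at place 16 (149 CPM per kilobase). Irf8 moved from place 244 (5.69 CPM per kilobase) to place 34 (60 CPM per kilobase) in wildtype cells and from place 319 to place 17 in iNOS KO cells. Klf4 moved from place 336 to place 46 in wildtype cells and from place 365 to place 273 in iNOS KO cells. Maf was the lowest of the 9 in 3 of the 4 groups of the first experiment, at place 812 (0.0876 CPM per kilobase) in unstimulated and 449 (1.92 CPM per kilobase) in stimulated wildtype cells. In the stimulated iNOS KO group Maf, at place 260, stood above Klf4. In RAW264.7 wildtype cells Spi1 moved from place 17 to place 10 among 965 factors, Cebpb from place 28 to place 9 and Irf8 from place 154 to place 32, while Klf4 stayed low at places 763 and 602.

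**Figure D1:**
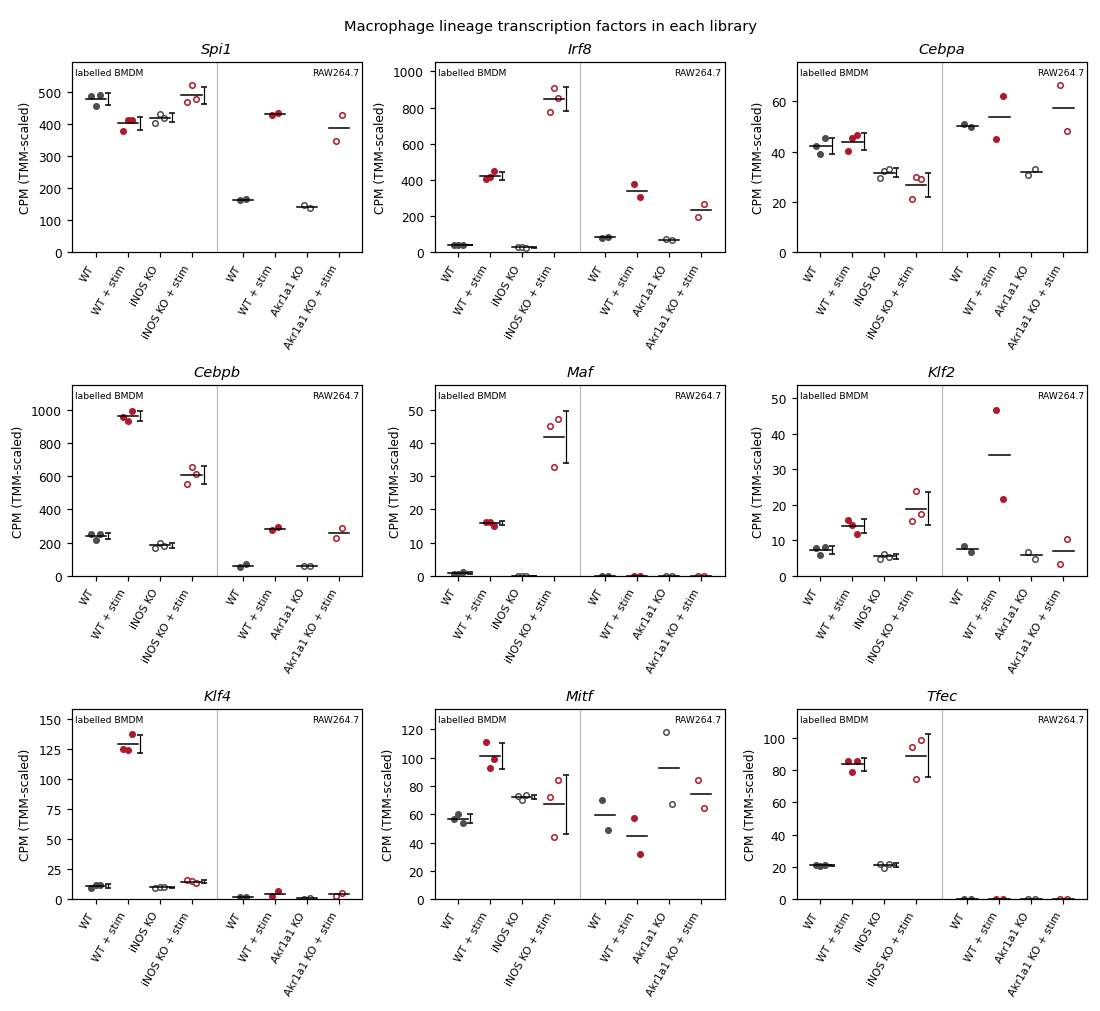
CPM of each of the 9 lineage factors, on a linear axis from 0, with a point for each library, a line at the mean of each of the 8 groups and, in the groups of 3, a bar of 1 SD to either side. Spi1 changed little in the first experiment, Irf8 was higher in every stimulated group, Klf4 was near 129 CPM in stimulated wildtype and near 14.7 in stimulated iNOS KO libraries, and Maf and Tfec were at 0 in all 8 RAW264.7 libraries.

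Stimulation of wildtype cells in the first experiment was accompanied by higher Irf8, Klf4, Maf, Cebpb and Tfec, by smaller rises of Klf2 and Mitf and by slightly lower Spi1. Of the 9 genes, 8 were called, 7 higher and 1 lower, beside 60.9% of the 18691 genes tested. Without Klf4, which was chosen on the stimulated wildtype libraries, the count was 7 of 8. Cebpa did not pass the test.

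Irf8 (chromosome 8, 121463097 to 121483433, + strand, as the table lists it) was at 40.3, 40.5 and 39.6 CPM in unstimulated and 406, 416 and 448 CPM in stimulated wildtype libraries A to C. This listed position does not adjoin the GRCm38.p6 promoter window above and may be on another build. The groups did not overlap, and the log2 fold change of Irf8 was 3.40 (SE 0.08, adjusted p = 8.59e-16). Spi1 (chromosome 2, 90912735 to 90946101, + strand) was at 486, 456 and 489.5 CPM unstimulated and 378, 411 and 413 CPM stimulated, a log2 fold change of -0.25 (SE 0.06, adjusted p = 0.00194). Thus the partner factors moved in opposite directions in these libraries, with every stimulated library below every unstimulated one for Spi1.

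Cebpb (chromosome 2, 167530835 to 167532338, + strand) was at 253, 217 and 250.3 CPM in unstimulated and 957, 933 and 996 CPM in stimulated wildtype libraries. Its log2 fold change was 2.00 (SE 0.08, adjusted p = 8.74e-13). Cebpa (chromosome 7, 34818718 to 34821353, + strand) was at 42.3, 39.1 and 45.4 CPM unstimulated and 40.3, 45.2 and 46.5 CPM stimulated. The Cebpa groups overlapped, with a log2 difference of 0.06 (95% interval -0.17 to 0.29, adjusted p = 0.666), and scaling by library totals alone turned it to -0.40 (adjusted p = 0.00331).

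Maf (chromosome 8, 116409681 to 116434533, - strand) was at 0.499, 0.612 and 1.06 CPM in unstimulated and 16.1, 16.2 and 15.1 CPM in stimulated wildtype libraries, a log2 fold change of 4.46 (SE 0.23, adjusted p = 1.9e-11). Tfec (chromosome 6, 16833372 to 16898440, - strand) was at 20.9, 20.7 and 21.2 CPM unstimulated and 86.0, 79.1 and 85.6 CPM stimulated, a log2 fold change of 2.00 (SE 0.10, adjusted p = 1.34e-11). For both genes every stimulated library lay above every unstimulated one. Mitf (chromosome 6, 97784013 to 97998310, + strand), the relative of Tfec, was at 56.6, 60.4 and 53.9 CPM unstimulated and 111, 92.9 and 98.8 CPM stimulated. Its log2 fold change was 0.83 (SE 0.15, adjusted p = 0.000172) and fell to 0.37 (adjusted p = 0.0578) with library totals alone.

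Klf4 (chromosome 4, 55527143 to 55532466, - strand) was at 9.22, 11.9 and 11.6 CPM in unstimulated and 125, 124 and 137 CPM in stimulated wildtype libraries, a log2 fold change of 3.57 (SE 0.10, adjusted p = 8.65e-15). These stimulated wildtype libraries are among those on which Klf4 was chosen, so this test is not independent of the choice. Klf2 (chromosome 8, 73072877 to 73075500, + strand) was at 7.83, 5.95 and 7.98 CPM unstimulated and 15.7, 14.2 and 11.8 CPM stimulated. The fitted rise of Klf2 was the smaller one, with a log2 fold change of 0.94 (SE 0.17, adjusted p = 0.000174).

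In iNOS KO cells stimulation was again accompanied by higher Irf8, Maf, Tfec, Cebpb and Klf2, while the log2 rise of Klf4 was 0.57 against 3.57 in wildtype cells and Mitf and Cebpa did not pass the test. Of the 9 genes 7 were called, all higher, beside 51.9% of all genes tested, or 6 of 8 without Klf4. Irf8 was at 29.1, 31.3 and 26.4 CPM in unstimulated and 778, 908 and 851 CPM in stimulated iNOS KO libraries A to C, a log2 fold change of 4.87 (SE 0.09, adjusted p = 3.28e-17). Maf held 0, 1 and 0 counts in the unstimulated libraries and was at 45.3, 32.8 and 47.4 CPM in the stimulated ones. Over the group these are 1953 counts against 1, a ratio of 2590 with a 95% counting interval of 465 to 103000 (adjusted p = 6.3e-14).

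Tfec was at 21.8, 19.7 and 22.0 CPM in unstimulated and 94.1, 74.3 and 99 CPM in stimulated iNOS KO libraries, a log2 fold change of 2.08 (SE 0.10, adjusted p = 1.35e-11). Cebpb was at 169, 197 and 182 CPM unstimulated and 554, 656 and 615 CPM stimulated, a log2 fold change of 1.73 (SE 0.08, adjusted p = 1.06e-11). Klf2 was at 4.86, 6.27 and 5.42 CPM unstimulated and 15.3, 24.0 and 17.3 CPM stimulated, a log2 fold change of 1.77 (SE 0.17, adjusted p = 2e-07). In these genes no stimulated library reached down to an unstimulated one.

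Klf4 was at 9.58, 10.2 and 9.95 CPM in unstimulated and 15.6, 15.3 and 13.2 CPM in stimulated iNOS KO libraries. Its log2 fold change of 0.57 (SE 0.11, adjusted p = 0.000233) came to 0.15 (adjusted p = 0.224) with library totals alone, and as Klf4 was chosen on these stimulated libraries neither test is independent of the choice. Spi1 was at 403, 431 and 419 CPM unstimulated and 467, 519 and 478 CPM stimulated, a log2 fold change of 0.22 (SE 0.06, adjusted p = 0.00579). The direction for Spi1 turned with the scaling, to -0.19 (adjusted p = 0.00497) with library totals alone, so whether its share of all counts rose or fell in iNOS KO cells depends on that choice. Cebpa was at 29.7, 32.4 and 32.9 CPM unstimulated and 21.3, 29.9 and 29.2 CPM stimulated, with a log2 difference of -0.24 (adjusted p = 0.0869) that was -0.32 (adjusted p = 0.00927) without stimulated iNOS KO replicate B and -0.31 (adjusted p = 0.0476) without replicate C. Mitf was at 72.7, 70.3 and 73.5 CPM unstimulated and 72.5, 44.2 and 84.0 CPM stimulated, where replicate B lay well below the others (log2 difference -0.11, 95% interval -0.43 to 0.22). With library totals alone both passed the test, Cebpa at -0.66 (adjusted p = 7.21e-05) and Mitf at -0.52 (adjusted p = 0.0103), and Cebpa also did with the replicate letter as a block (-0.25, adjusted p = 0.0484).

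Scaling to library totals alone, in place of TMM, moved the median log2 fold change of all genes by -0.46 in wildtype and -0.42 in iNOS KO cells. The share of called genes that were higher moved from 53.2% to 33.9% in wildtype and from 52.6% to 28.2% in iNOS KO cells. The rises of Irf8, Cebpb, Maf and Tfec were several times larger than this shift in both genotypes, as was that of Klf4 in wildtype cells.

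**Figure D2:**
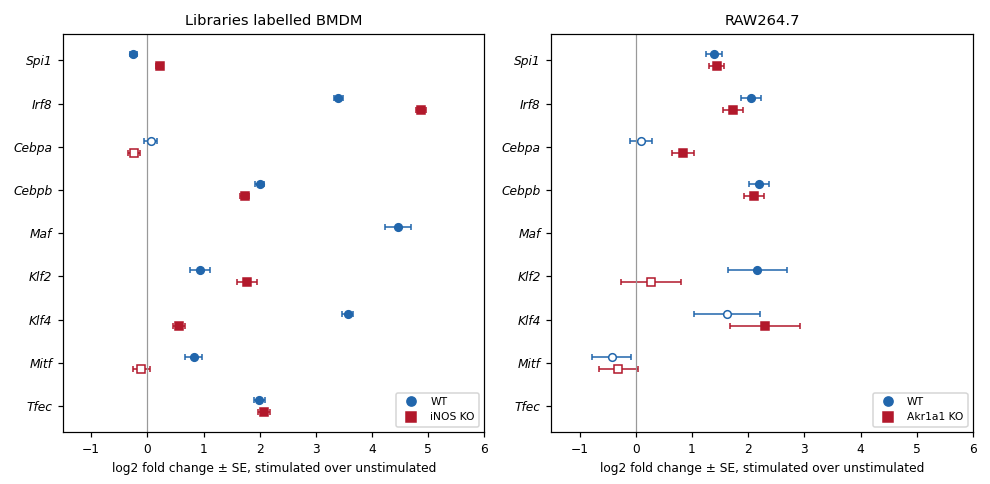
Log2 fold change of each lineage factor on stimulation, with 1 standard error, in wildtype and iNOS KO cells of the first experiment and in wildtype and Akr1a1 KO RAW264.7 cells, with filled points for genes called at an adjusted p under 0.05 and open points for the rest. Maf in iNOS KO cells, with 1 count before stimulation, is not drawn, and Maf and Tfec held no counts in RAW264.7 cells. Irf8 lies at 3.40 and 4.87 in the first experiment and Klf4 at 3.57 and 0.57, while Spi1 lies near 0 there (-0.25 and 0.22, the second turning to -0.19 with library totals alone) and at 1.39 and 1.44 in RAW264.7 cells.

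Stimulated iNOS KO cells were next compared with stimulated wildtype cells. Any difference between the genotypes from before stimulation is included here, and dependence on nitric oxide itself was not tested. Irf8, Maf, Cebpa and Cebpb were called between the unstimulated genotypes as well, each lower in iNOS KO cells. Klf4 was far lower in iNOS KO cells, Irf8 and Maf were higher, and Cebpa, Cebpb and Mitf were lower. Tfec did not pass the test. Of the 8 genes other than Klf4, 7 were called, 4 higher and 3 lower, beside 48.4% of all genes tested and with a median log2 difference of 0.19 beside -0.044 over all genes.

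Irf8 had its highest levels of the first experiment in stimulated iNOS KO libraries (778 to 908 CPM, against 406 to 448 in stimulated wildtype), a log2 difference of 1.00 (SE 0.07, adjusted p = 4.46e-09). Spi1 was at 467 to 519 CPM against 378 to 413, a log2 difference of 0.29 (SE 0.06, adjusted p = 0.00102). For both genes every iNOS KO library lay above every wildtype library.

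Cebpb was at 554 to 656 CPM in stimulated iNOS KO and 933 to 996 CPM in stimulated wildtype libraries, a log2 difference of -0.66 (SE 0.08, adjusted p = 2.01e-06). Cebpa was at 21.3 to 29.9 CPM against 40.3 to 46.5, a log2 difference of -0.71 (SE 0.11, adjusted p = 4.96e-05). Both C/EBP genes were thus lower by similar log2 amounts, at levels that differ by more than an order of magnitude per length.

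Maf was at 32.8 to 47.4 CPM in stimulated iNOS KO and 15.1 to 16.2 CPM in stimulated wildtype libraries, a log2 difference of 1.40 (SE 0.14, adjusted p = 3.86e-07). Klf4, chosen for this difference, was at 13.2 to 15.6 CPM against 124 to 137, a log2 difference of -3.13 (SE 0.10) given with no test. Klf2 was at 15.3 to 24.0 CPM against 11.8 to 15.7, and the ranges overlapped (log2 difference 0.44, SE 0.16, adjusted p = 0.0366). The call for Klf2 was lost without wildtype replicate B (adjusted p = 0.0719), without wildtype replicate C (0.156), without iNOS KO replicate B (0.159) and in DESeq2 (0.0524).

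Mitf was at 44.2 to 84.0 CPM in stimulated iNOS KO and 92.9 to 111 CPM in stimulated wildtype libraries, a log2 difference of -0.59 (SE 0.15, adjusted p = 0.00411), which fell short of the threshold where only these 6 libraries were fitted (adjusted p = 0.0575). Without iNOS KO replicate B the difference was -0.37 (adjusted p = 0.000168). Tfec was at 74.3 to 99 CPM against 79.1 to 86.0. Its log2 difference was 0.09 (95% interval -0.10 to 0.29, adjusted p = 0.43), and without iNOS KO replicate B it was 0.21 (adjusted p = 0.00788).

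Without stimulation fewer genes were called between the genotypes. Of the 9 genes 4 were called, all lower in iNOS KO cells, beside 5.98% of all genes tested. Irf8 was at 26.4 to 31.3 CPM in iNOS KO and 39.6 to 40.5 in wildtype libraries (log2 difference -0.47, SE 0.08, adjusted p = 0.000871). Cebpb was at 169 to 197 CPM against 217 to 253 (log2 difference -0.39, SE 0.08, adjusted p = 0.00494). Irf8 was therefore lower in iNOS KO cells before stimulation and higher after it.

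Maf held 1 count over the 3 unstimulated iNOS KO libraries and 39 over the 3 wildtype libraries, a wildtype to iNOS KO ratio of 43.4 with a 95% counting interval of 7.35 to 1760 (adjusted p = 0.00053). Cebpa was at 29.7 to 32.9 CPM against 39.1 to 45.4 (log2 difference -0.42, SE 0.11, adjusted p = 0.032). That call was lost with library totals alone (-0.36, adjusted p = 0.0625) and when any one of wildtype replicates A and C and iNOS KO replicates A, B and C was left out (adjusted p 0.0789 to 0.162). Spi1 was lower by 0.19 on the log2 scale but did not pass the test (adjusted p = 0.0875), and passed it without stimulated iNOS KO replicate B (adjusted p = 0.00763). Mitf differed by 0.34 (adjusted p = 0.26, or 0.000742 without that library), and Klf2 by -0.40 (adjusted p = 0.285). Klf4 differed by -0.14 (95% interval -0.36 to 0.09) and Tfec by 0.01 (95% interval -0.20 to 0.23).

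**Figure D3:**
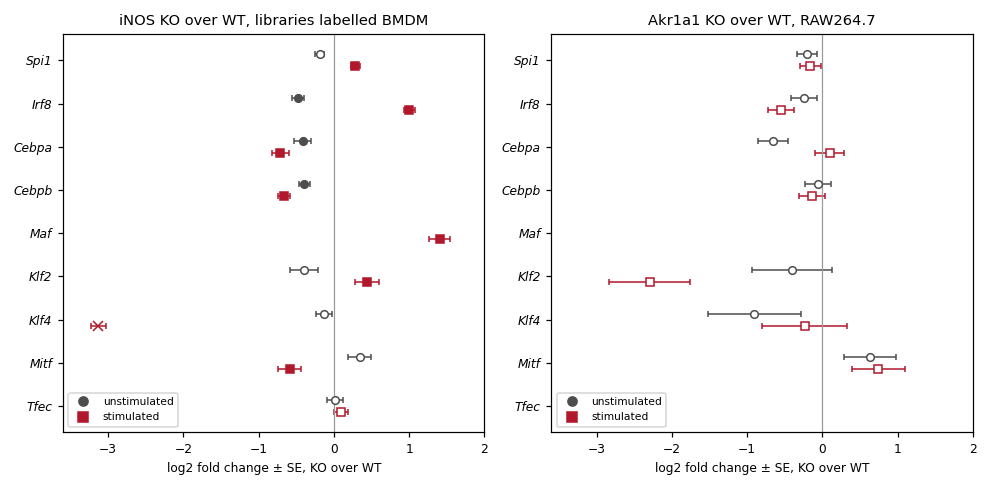
Log2 difference between KO and wildtype cells for each lineage factor, with 1 standard error, unstimulated and stimulated, for iNOS KO in the first experiment and Akr1a1 KO in RAW264.7 cells, with filled points for called genes, open points for the rest and a cross where no test was made. Maf in unstimulated cells is not drawn. Irf8 lies at -0.47 before and 1.00 after stimulation in iNOS KO cells, Klf4 lies at -3.13 after it, and none of the Akr1a1 KO differences was called.

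Whether the response to stimulation itself differed between wildtype and iNOS KO cells was tested as the interaction of genotype and stimulation. Of the 8 genes other than Klf4, 5 were called, 4 with a more positive response in iNOS KO cells and 1 with a less positive one, beside 35.4% of all genes tested. The difference in response was 1.47 for Irf8 (SE 0.11, adjusted p = 1.01e-08), 0.48 for Spi1 (SE 0.09, adjusted p = 0.000353) and 0.83 for Klf2 (SE 0.25, adjusted p = 0.0139). Mitf had a response lower by 0.93 in iNOS KO cells (log2 difference -0.93, SE 0.22, adjusted p = 0.00262). The fitted value for Maf was 6.33 (adjusted p = 2.78e-06), which rests on 1 count in unstimulated iNOS KO cells and is no bound.

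For Tfec the difference in response was 0.08 (95% interval -0.21 to 0.37). The difference for Cebpb was -0.27 (adjusted p = 0.0711) and passed the test without stimulated iNOS KO replicate B (-0.33, adjusted p = 0.00443) and without unstimulated iNOS KO replicate A (-0.32, adjusted p = 0.044). Cebpa had a difference of -0.30 (adjusted p = 0.163, or -0.38 with adjusted p = 0.0232 without stimulated iNOS KO replicate B). For Klf4 the difference in response was -3.00 (SE 0.15), given with no test because the gene was chosen on it.

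In order of level across the 4 groups of the first experiment, Irf8, Cebpb and Maf had no neighbouring groups that overlapped. Irf8 and Maf ran from stimulated iNOS KO over stimulated wildtype and unstimulated wildtype to unstimulated iNOS KO cells. Cebpb ran from stimulated wildtype over stimulated iNOS KO and unstimulated wildtype to unstimulated iNOS KO cells. Klf4 stood alone in stimulated wildtype cells, followed by stimulated iNOS KO cells and then by the unstimulated groups, which overlapped. For Tfec the groups overlapped within each state, and for Cebpa within each genotype. Mitf stood apart in stimulated wildtype cells, and its other groups overlapped with their neighbours.

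In RAW264.7 cells stimulation was accompanied by higher Spi1, Irf8 and Cebpb in both genotypes. Of 7 genes, 4 were called in wildtype cells, all higher, beside 37.7% of the 19569 genes tested, and 5 in Akr1a1 KO cells, all higher, beside 39.2%. Maf and Tfec held 0 counts in all 8 libraries, where 3 counts, taken as the limit that a count of 0 allows, correspond to 0.0645 to 0.236 CPM. In the first experiment Tfec was never below 19.7 CPM. The 2 experiments were normalised separately, and no test was made of that difference, for which Tfec was chosen.

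Spi1 was at 162 and 166 CPM in unstimulated and 427 and 434 CPM in stimulated wildtype RAW264.7 libraries A and B, a log2 fold change of 1.39 (SE 0.14, adjusted p = 0.000119). In Akr1a1 KO cells it was at 147 and 138 CPM unstimulated and 345 and 426 CPM stimulated (1.44, SE 0.14, adjusted p = 9.27e-05). Irf8 was at 78.7 and 86.5 CPM unstimulated and 377 and 305 CPM stimulated in wildtype libraries (2.05, SE 0.18, adjusted p = 6.66e-05). For both genes stimulated and unstimulated libraries were well apart.

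Irf8 was at 72.3 and 66.9 CPM in unstimulated and 197 and 267 CPM in stimulated Akr1a1 KO libraries (1.74, SE 0.18, adjusted p = 0.000139). Cebpb was at 53.2 and 70.9 CPM unstimulated and 273 and 294 CPM stimulated in wildtype libraries, and at 59.9 and 59.8 against 226 and 289.8 CPM in Akr1a1 KO libraries. Its log2 fold changes were 2.19 (SE 0.18, adjusted p = 4.63e-05) and 2.11 (SE 0.18, adjusted p = 5.37e-05), close to the 2.00 and 1.73 of the first experiment.

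Cebpa was at 50.8 and 49.8 CPM in unstimulated and 45.0 and 62.2 CPM in stimulated wildtype libraries (0.09, 95% interval -0.36 to 0.54). In Akr1a1 KO cells it was at 30.6 and 33.2 CPM against 66.5 and 48.2 CPM (0.84, SE 0.20, adjusted p = 0.0103). That call was lost without unstimulated Akr1a1 KO replicate A (adjusted p = 0.0674), without stimulated Akr1a1 KO replicate A (0.0779) and without the 2 libraries whose title and treatment disagree (0.0828). Mitf was at 70.3 and 49.2 CPM against 57.4 and 31.6 CPM in wildtype and at 118 and 67.2 against 84.4 and 64.4 CPM in Akr1a1 KO libraries, and the states overlapped in each genotype. It was not called in either (log2 differences -0.43 and -0.31), though in wildtype cells it passed the test with the replicate letter as a block (-0.46, adjusted p = 0.0496) and with no filter beyond 1 count (-0.44, adjusted p = 0.0411).

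Klf2 was at 8.43 and 6.82 CPM in unstimulated and 46.6 and 21.6 CPM in stimulated wildtype libraries, a log2 fold change of 2.17 (SE 0.53, adjusted p = 0.0125). The replicates differed by a wide margin, and the call was lost without unstimulated replicate B (adjusted p = 0.0853), without stimulated replicate A (0.0558) and without the 2 libraries with conflicting labels (0.125). In Akr1a1 KO cells Klf2 was at 6.68 and 4.87 CPM against 3.35 and 10.5 CPM (0.28, 95% interval -0.95 to 1.5). Klf4 was low in this line, at 1.45 and 1.61 CPM against 2.68 and 6.81 CPM in wildtype cells (1.63, SE 0.59, adjusted p = 0.0605) and at 0.393 and 1.15 against 2.95 and 5.15 CPM in Akr1a1 KO cells (2.30, SE 0.62, adjusted p = 0.019). The wildtype Klf4 difference passed the test without stimulated wildtype replicate A (adjusted p = 0.0157), with DESeq2 (0.0244), with DESeq2's size factors (0.0491), with no filter beyond 1 count (0.00252) and with the replicate letter as a block (0.0261), and the Akr1a1 KO call was lost without unstimulated replicate A (0.096) or stimulated replicate B (0.102).

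None of the 7 genes was called between Akr1a1 KO and wildtype RAW264.7 cells by edgeR, where few genes were called at all, 0.286% of those tested in stimulated and 0.583% in unstimulated cells. In the interaction 0.0204% of all genes were called, and none of the 7. Before adjustment, the edgeR p was under 0.05 for Irf8 and Klf2 in stimulated cells and for Cebpa in unstimulated cells. In the interaction it was so for Cebpa and Klf2. The share of all genes under this unadjusted limit was not taken, and the shares above are at the adjusted one, so they are no background for it. DESeq2 called 1, Klf2 in stimulated cells (adjusted p = 0.00129), and 0 in the other 2 comparisons. Klf2 was lower by 2.29 on the log2 scale in stimulated Akr1a1 KO cells (log2 difference -2.29, 95% interval -3.53 to -1.06, adjusted p = 0.179), with 3.35 and 10.5 CPM against 46.6 and 21.6 CPM and no overlap.

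Irf8 was at 197 and 267 CPM in stimulated Akr1a1 KO and 377 and 305 CPM in stimulated wildtype libraries (-0.56, 95% interval -0.95 to -0.16, adjusted p = 0.296). Cebpa was at 30.6 and 33.2 CPM in unstimulated Akr1a1 KO and 50.8 and 49.8 CPM in unstimulated wildtype libraries (-0.66, 95% interval -1.11 to -0.20, adjusted p = 0.347). The intervals for Spi1 (-0.47 to 0.15) and Cebpb (-0.53 to 0.26) in stimulated cells exclude changes as large as their response to stimulation. For Klf4 the interval ran from -1.54 to 1.07 and for Mitf from -0.06 to 1.55, and both intervals include 0.

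The responses of wildtype cells in the 2 experiments were compared in a joint fit of all 20 libraries, in which 20.6% of 21826 genes were called and 4 of the 7 lineage factors, 3 with a more positive response in the libraries labelled BMDM and 1 with a less positive one, or 3 of 6 without Klf4. The experiments differ in the label of the cells and in the IFNγ dose, which cannot be told apart here. The joint fit takes 1 spread per gene over both experiments. Its common dispersion was 0.0203, against 0.0522 in RAW264.7 cells and 0.00845 in the first experiment. Its standard errors and p-values may therefore understate the spread of the RAW264.7 libraries. Among wildtype cells Spi1 rose in RAW264.7 and fell in the libraries labelled BMDM, and its response was lower by 1.71 in the latter (log2 difference -1.71, SE 0.13, adjusted p = 2.78e-08). The response of Irf8 was higher there by 1.28 (SE 0.17, adjusted p = 1.83e-05). That of Klf4 was higher by 1.85 (SE 0.41, adjusted p = 0.00226), a value that shares its stimulated wildtype libraries with the choice of the gene and was not called without unstimulated RAW264.7 wildtype replicate B (adjusted p = 0.0585).

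For Mitf the response was higher by 1.18 in the libraries labelled BMDM (SE 0.36, adjusted p = 0.0238). The call for Mitf was lost without any of unstimulated replicate C or stimulated replicate A of the BMDM wildtype groups and unstimulated replicate A or stimulated replicate B of the RAW264.7 wildtype groups (adjusted p 0.0506 to 0.136). The response of Klf2 was lower by 1.30 (log2 difference -1.30, adjusted p = 0.0634) and passed the test without stimulated RAW264.7 wildtype replicate B (-1.75, adjusted p = 0.00798) or either stimulated Akr1a1 KO library (adjusted p 0.0183 and 0.0184). Cebpb (-0.25, 95% interval -0.63 to 0.12) and Cebpa (-0.11, 95% interval -0.57 to 0.35) did not pass the test.

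**Figure D4:**
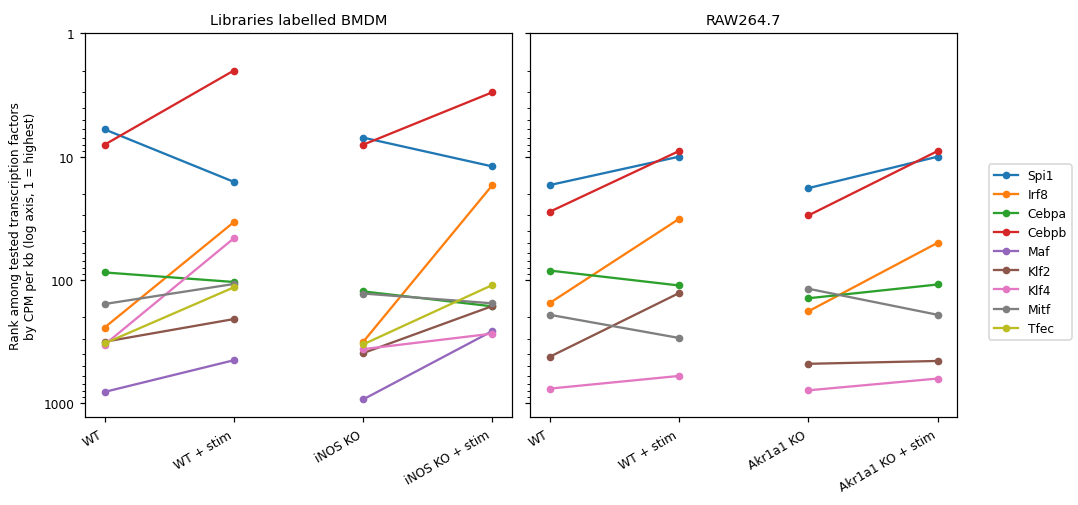
Place of each lineage factor among the genes marked as transcription factors, by CPM per kilobase, in the groups of both experiments, with place 1 at the top of a log axis. Cebpb and Spi1 stay within the first 30 places in every group, Irf8 moves from place 244 to place 34 in wildtype and from 319 to 17 in iNOS KO cells, and Klf4 from 336 to 46 and from 365 to 273.

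Relatives of the lineage factors were examined as families, from lists chosen with earlier results of these data known. The counts below stand beside 60.9% of all genes called on stimulation of wildtype cells and 48.4% between the stimulated iNOS genotypes, and whether a list stands apart from other genes was not tested. Of 5 other C/EBP genes, 4 were called on stimulation of wildtype cells (3 higher, 1 lower) and 4 between stimulated iNOS KO and wildtype cells (2 higher, 2 lower, median 0.12). Cebpd, a C/EBP factor induced in acute inflammation, was at 124 to 150 CPM in stimulated iNOS KO and 44.2 to 55.5 CPM in stimulated wildtype libraries (log2 difference 1.5, SE 0.12, adjusted p = 1.6e-08), opposite to Cebpa and Cebpb. Ddit3, which encodes the stress-induced C/EBP relative CHOP, was lower in stimulated iNOS KO cells by 1.24 (log2 difference -1.24, SE 0.09, adjusted p = 8.01e-09). In unstimulated RAW264.7 cells Ddit3 was higher in Akr1a1 KO than in wildtype cells (log2 difference 1.37, SE 0.18, adjusted p = 0.0176).

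Among 11 other KLF genes tested, 7 were called on stimulation of wildtype cells (5 higher, 2 lower, median 0.40, beside 60.9% of all genes) and 7 between stimulated iNOS KO and wildtype cells (2 higher, 5 lower, median -0.28, beside 48.4%). Klf6, which promotes inflammatory activation, rose by 2.86 in wildtype and 2.59 in iNOS KO cells of the first experiment and by 3.49 and 3.40 in wildtype and Akr1a1 KO RAW264.7 cells, all on the log2 scale. In the MiT/TFE family both other members were called on stimulation of wildtype cells, Tfeb lower (log2 fold change -0.97, SE 0.12) and Tfe3 higher by less than the shift between scalings (0.23, SE 0.08). After stimulation Tfeb was higher in iNOS KO than in wildtype cells (0.48, SE 0.13, adjusted p = 0.00426), where Mitf was lower.

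Of 19 ETS, RUNX and IRF partners of PU.1 and IRF8, 14 were called on stimulation of wildtype cells (11 higher, 3 lower, median 0.81, beside 60.9% of all genes) and 11 between stimulated iNOS KO and wildtype cells (5 higher, 6 lower, median 0.05, beside 48.4%). The largest rises on stimulation were those of Batf2 (log2 fold change 9.10) and Irf1 (7.34), both known to respond to IFNγ. After stimulation Irf1 was lower in iNOS KO than in wildtype cells (log2 difference -0.80), unlike Irf8. Of 21 other monocyte and tissue macrophage factors tested, 18 were called on stimulation of wildtype cells (12 higher, 6 lower) and 12 between the stimulated genotypes (6 higher, 6 lower, median -0.04). Bhlhe41 (log2 difference -2.35) and Id2 (-1.10) were lower and Nr4a1 (1.59) and Id3 (1.28) higher in stimulated iNOS KO cells.

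Genes described as targets of these factors were examined in the same comparison. All 15 osteoclast genes listed as targets of MITF, its relatives and PU.1 were called between stimulated iNOS KO and wildtype cells, 4 higher and 11 lower, with a median log2 difference of -0.89 beside -0.044 over all genes and 48.4% of all genes called. Atp6v0d2, a proton pump subunit of osteoclasts, and Gpnmb, a known MITF target, had the largest decreases among those with a mean log2 CPM over 1 (-2.06 and -1.79), while Ocstamp (1.11) and Mmp9 (1.09) were higher. Below that level, and named after their values were seen, Itgb3 had a larger decrease (-2.55), and Calcr held at most 3 counts in any stimulated library of either genotype, so no fold is given. Il10, the c-MAF target noted above, was higher in stimulated iNOS KO cells (log2 difference 2.69, SE 0.10, adjusted p = 1.16e-12), as Maf was. Of the 20 macrophage markers, 14 were called, 8 higher and 6 lower (median 0.05).

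In RAW264.7 cells 13 of 17 ETS, RUNX and IRF partners were called on stimulation of wildtype cells (12 higher, 1 lower), 2 of 5 other C/EBP genes, 8 of 11 other KLF genes (3 higher, 5 lower), both other MiT/TFE genes, 8 of 15 osteoclast genes and 11 of 18 macrophage markers, beside 37.7% of all genes tested. Between stimulated Akr1a1 KO and wildtype RAW264.7 cells, 0.286% of all genes tested were called. Among them were 3 genes of all the lists, each lower in Akr1a1 KO cells. They were Csf1r, the M-CSF receptor (291 to 303 against 659 to 682 CPM, adjusted p = 0.011), the chemokine receptor gene Cx3cr1 (1.14 to 3.14 against 23.2 to 64.7 CPM, adjusted p = 0.0286) and, named after its values were seen, Gfi1, a myeloid repressor (0.251 to 0.268 against 5.95 to 9.06 CPM, adjusted p = 0.00836). These were 2 of 18 macrophage markers and 1 of 18 other monocyte and tissue macrophage factors tested. Between the unstimulated genotypes 2 of 18 macrophage markers were called, both lower in Akr1a1 KO cells, beside 0.583% of all genes. There 2 of 18 other monocyte and tissue macrophage factors (1 higher, 1 lower) and 1 of 5 other C/EBP genes were called as well.

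The genes whose pattern over the 12 libraries of the first experiment was most like that of each lineage factor were found by Pearson correlation of log2 CPM among 8572 protein-coding genes. The libraries share the 4 groups, so a large response to stimulation alone gives many high values, and 1167 genes had r over 0.9 with Irf8 but 38 with Spi1 and 16 with Cebpa. For Irf8 these were Mmp9 (r = 0.999), Prdx5 (0.999) and Psmb10 (0.998), which had r of 0.942, 0.968 and 0.99 with it over the 8 RAW264.7 libraries. For Klf4 they were Slc6a8 (0.994), Ero1a (0.993) and Ezh1 (0.992), with 0.637, 0.662 and 0.771 in RAW264.7 cells. Maf was most like Epsti1 (0.998), Evl (0.995) and Rassf4 (0.994), and Tfec most like Ifi204 (0.998), Sp100 (0.997) and Agfg1 (0.997).

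Cebpb was most like Tgm2, Syk and Rffl (0.997 each), with r of 0.921, 0.981 and 0.981 in RAW264.7 cells. Klf2 was most like Capn1 (0.982), Mtmr14 (0.982) and Atp13a1 (0.979), with -0.34, 0.255 and 0.593 in RAW264.7 cells. Mitf was most like Tmem30a (0.977), Lnpep (0.975) and Zfr (0.969), with -0.502, -0.058 and -0.272 in RAW264.7 cells. Spi1 was most like Mdh2 (0.968), which ran opposite to it in RAW264.7 cells (-0.985). Next were Gpat4 (0.966, with -0.355 in RAW264.7 cells) and Fes (0.958, with 0.947 in RAW264.7 cells). Cebpa was most like Gorasp1 (0.972), Cdk18 (0.959) and Hexa (0.941), none of which kept a value over 0.4 in RAW264.7 cells.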

How the data were processed

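According to the study's methods, the authors called bases with CASAVA, removed low quality reads, mapped those left with STAR against mm10 and summed them by gene. The counter, its annotation and whether it used strand are not given in the sources used here, so reads of overlapping or antisense genes cannot be told apart. The deposited tables hold whole-number counts with no normalization, and gene positions are given as the tables list them, without a build. For Irf8, Cebpa, Cebpb and Klf2 these positions do not adjoin the promoter windows on GRCm38.p6. None of the 3 Mitf windows adjoins its listed start either, and all lie within the listed gene. The listed positions may therefore be on another build, and distances between them and the windows cannot be read. All 20 libraries were grouped by their labels.

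The test of a gene required 10 or more counts over all libraries and used edgeR 4.0.16 under R 4.3.3, with TMM scaling, 1 mean per group, 2-sided quasi-likelihood F tests and Benjamini-Hochberg adjustment over all genes tested. The fit was tested on simulated data. Log CPM, from TMM library sizes, had a prior count of 2. Intervals are at 95%, and counting intervals, exact for the ratio of 2 counts, cover counting error only. The deviations of same-letter libraries had r of -0.097 to 0.102 in the libraries labelled BMDM. In RAW264.7 cells they had 0.254 between the states of wildtype and 0.104 between those of Akr1a1 KO cells, and -0.096 to 0.01 across genotypes. The study calls these RAW264.7 replicates clonal, but no source states that a letter marks the same clone in both states, so the letters were not taken to pair samples and the block is an alternative. Replicates all differed by more than sampling noise. Alternatives were DESeq2 1.42.0, its size factors, limma 3.58.1 voom, other filters, only the groups compared, a fold limit, the replicate letter as a block, each library left out and, added after the data had been seen, library totals alone. Plots used matplotlib 3.10.9 and Python 3.11.15.

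The 9 genes, the lists and the rules were chosen with earlier results of these data known. Besides the 9 genes, the text names the knocked-out genes, for each list at most the 2 most increased and 2 most decreased genes among those called with a mean log2 CPM over 1, relatives set beside their family member, and the 3 genes most like each factor. Some planned results that need items withheld from this work are not reported here.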

Additional observations from a re-analysis of the deposited data

Results flagged for a closer look

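Within the first experiment, 5 of the 8 lineage factors tested had a response to stimulation that differed between iNOS KO and wildtype cells by the test of the interaction in edgeR, beside 35.4% of all genes. The differences in log2 fold change, iNOS KO minus wildtype, were 1.47 for Irf8, 0.83 for Klf2, 0.48 for Spi1, 6.33 for Maf and -0.93 for Mitf. The value for Maf is a fitted one that rests on 1 count in unstimulated iNOS KO cells. Spi1 was the 1 gene among them that was called lower on stimulation of wildtype cells and higher on stimulation of iNOS KO cells, and the second of these directions turned with library totals alone.

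Between the experiments, 4 of 7 factors had a different response in wildtype cells by the test in the joint fit, beside 20.6% of the 21826 genes tested. One of them is Klf4, whose stimulated wildtype libraries were used to choose it. The differences, libraries labelled BMDM minus RAW264.7, were -1.71 for Spi1, 1.28 for Irf8, 1.85 for Klf4 and 1.18 for Mitf. The IFNγ dose differs along with the label of the cells, and the 2 cannot be told apart.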

How the results depend on the processing

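Over the 11 comparisons, the count of lineage factors called stayed within 1.5 times its value under 213 of 222 alternatives. With an absolute log2 fold change over 1 required as well, the counts were 5 in place of 8 on stimulation of wildtype cells, 1 in place of 7 between the stimulated and 1 in place of 4 between the unstimulated iNOS genotypes, and 2 in place of 5 for their interaction. With no filter beyond 1 count, 3, 2 and 1 in place of 0 were called between stimulated and unstimulated Akr1a1 genotypes and in their interaction, and DESeq2 called 1 in the first of these. The cause was not tested. With 1 library left out at a time, counts ranged from 8 to 8 on stimulation of wildtype and 7 to 8 of iNOS KO cells, 6 to 7 and 3 to 6 between stimulated and unstimulated iNOS genotypes, 5 to 7 for the interaction, in RAW264.7 cells 3 to 4 and 3 to 5 on stimulation of wildtype and Akr1a1 KO cells (3 without unstimulated Akr1a1 KO replicate A) and 3 to 5 between experiments, and were 0 in the 3 Akr1a1 comparisons of genotypes. The replicate block, with letters that were not taken to pair the libraries, gave 8 and 8 on stimulation, 7, 4 and 5 between iNOS genotypes and in their interaction, 6 (Klf4 and Mitf added) and 5 on stimulation in RAW264.7 cells, 0 in the Akr1a1 comparisons and 4 between experiments. Of 1762 alternative values for single factors, 1679 kept direction and side of the threshold, 45 lost the call, 36 gained it and 2 reversed, both with library totals alone: Cebpa on stimulation of wildtype cells (-0.40) and Spi1 on stimulation of iNOS KO cells (-0.19). That scaling moved the share of called genes that were higher from 31.5% to 42.6% between unstimulated iNOS genotypes, from 49.1% to 35.8% on stimulation of wildtype RAW264.7 cells and from 46.1% to 32.7% between experiments. Counts for the other lists stayed within 1.5 times under 2850 of 3108 alternatives.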
